A study of Mus musculus with 2 samples.

Results

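Imprinted genes were followed through reprogramming to induced pluripotent stem cells, with 10 named genes: Meg3, Rian, Mirg and Dlk1 of 1 imprinted domain, H19, Igf2 and Cdkn1c of another chromosome, and Peg3, Mest and Plagl1. They were found by symbol among the 17408 genes of the table. Rian was not analysed here, so 9 of the 10 genes had values. The cells came from mouse embryonic fibroblasts carrying STEMCCA, a doxycycline-inducible cassette of Pou5f1, Sox2, Klf4 and Myc, and were taken unsorted at day 16 of reprogramming, in embryonic stem cell medium with serum, LIF and ascorbic acid. There were 2 droplet single-cell 3′ libraries in 1 group, called replicate 1 (3109 cells, 54145377 unique molecular identifiers, UMIs) and replicate 2 (3914 cells, 64654306 UMIs), with medians of 15625 and 14292 UMIs per cell. All cells carried the cassette and had received the same treatment. The study's text speaks of separate STEMCCA mouse systems for these day 16 cells. The labels do not say which system, how many cultures or how many embryos each library held. The numbers only name the libraries. P-values below rest on how differences between states varied between the libraries, after a library term took out their overall difference. In that spread, mouse system, culture and technical differences cannot be told apart.

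Imprinted genes are expressed mainly from the copy inherited from 1 parent, because DNA methylation set in the egg or sperm marks 1 of the copies at a nearby control region. In the Dlk1–Dio3 domain the maternal copy makes the noncoding RNAs Meg3, Rian and Mirg, which also carry small RNAs, while the paternal copy makes the coding genes Dlk1, Rtl1 and Dio3. In induced pluripotent stem cells of the mouse this domain is known to be prone to silencing of its maternal RNAs. H19 and Igf2 share enhancers, with H19 made from the maternal and Igf2 from the paternal copy. Cdkn1c is maternally expressed, and Peg3, Mest and Plagl1 are paternally expressed. The libraries do not separate the parental copies, so every level below is a sum over both.

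On GRCm38, Meg3 lies on chromosome 12 at 109541001 to 109571726 on the plus strand, Mirg at 109729764 to 109749460 and Dlk1 at 109452823 to 109463336 on the same strand. H19 (142575529 to 142578143), Igf2 (142650766 to 142666816), Cdkn1c (143458339 to 143461050) and Peg3 (6703892 to 6730431) lie on the minus strand of chromosome 7. Mest lies on chromosome 6 at 30723547 to 30748465 and Plagl1 on chromosome 10 at 13060504 to 13131694, both on the plus strand. The 3′ end of Mest overlaps that of Copg2 on the other strand, so reads there are uncertain.

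Start-site sequence is shown because imprinting marks are held at such CG-rich regions and because ZFP57, which keeps the marks in place, binds the methylated hexamer TGCCGC. RefSeq promoter windows (GRCm38.p6, 250 bases before to 50 after a start) matched 8 of the 10 genes, all but H19 and Cdkn1c, with 14 windows in all. The hexamer or its reverse complement GCGGCA was found in 5 of the 14, which include a pair of overlapping Mest windows. Of all 32851 windows, 11.6% held it. A match is a description of the letters only. The first Meg3 window held 13 CG dinucleotides against a median of 7 over all windows. The Meg3 window (chr12:109540746-109541045, plus strand) is given whole, and the 250 bases before a start are given for Plagl1 (chr10:13090582-13090831, plus strand), Mest (chr6:30737800-30738049, plus strand) and Dlk1 (chr12:109452573-109452822, plus strand). Capitals mark the hexamer on either strand, and the Dlk1 stretch holds none.
Meg3: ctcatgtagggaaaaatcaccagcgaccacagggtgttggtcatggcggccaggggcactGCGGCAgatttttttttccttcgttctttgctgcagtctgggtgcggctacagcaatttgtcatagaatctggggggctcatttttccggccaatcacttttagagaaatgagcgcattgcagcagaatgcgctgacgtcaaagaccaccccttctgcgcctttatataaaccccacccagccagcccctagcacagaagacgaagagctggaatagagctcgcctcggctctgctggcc
Plagl1: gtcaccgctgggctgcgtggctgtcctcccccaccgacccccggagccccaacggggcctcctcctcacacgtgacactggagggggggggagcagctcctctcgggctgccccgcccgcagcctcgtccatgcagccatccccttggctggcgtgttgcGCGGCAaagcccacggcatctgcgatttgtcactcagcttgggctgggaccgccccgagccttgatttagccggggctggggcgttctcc
Mest: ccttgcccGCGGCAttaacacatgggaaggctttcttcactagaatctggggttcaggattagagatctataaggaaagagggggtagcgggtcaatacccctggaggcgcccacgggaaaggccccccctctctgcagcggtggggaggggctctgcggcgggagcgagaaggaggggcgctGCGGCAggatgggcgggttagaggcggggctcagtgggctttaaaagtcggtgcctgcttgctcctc
Dlk1: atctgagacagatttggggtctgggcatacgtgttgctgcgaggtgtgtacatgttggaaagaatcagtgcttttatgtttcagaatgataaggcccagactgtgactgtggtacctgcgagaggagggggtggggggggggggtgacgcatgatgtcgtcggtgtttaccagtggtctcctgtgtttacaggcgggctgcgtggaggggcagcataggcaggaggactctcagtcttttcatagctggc

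The maternal RNAs of the Meg3 domain are also hosts of small RNAs, which the libraries did not measure. RefSeq places 3 mature microRNAs on the same strand within Meg3 and 26 within Mirg, and 2 within H19. Those of Meg3 and H19 are given with the seed (bases 2 to 8) in capitals. Among the microRNAs within these genes, 1 pair shares a seed, miR-453 and miR-496a-5p of Mirg, and both are given too.
mmu-miR-1906: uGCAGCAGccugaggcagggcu
mmu-miR-770-5p: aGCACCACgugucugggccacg
mmu-miR-770-3p: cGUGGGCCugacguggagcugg
mmu-miR-453: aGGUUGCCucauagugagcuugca
mmu-miR-496a-5p: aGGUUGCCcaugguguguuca
mmu-miR-675-5p: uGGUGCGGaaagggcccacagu
mmu-miR-675-3p: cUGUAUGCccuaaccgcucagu

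Cells were grouped into states by clustering without imprinted, X-linked or Y-linked genes and without the reprogramming factors. Of 15 clusters, 11 had at least 30 cells in both libraries and are called states, numbered from 0. State 6 was pluripotent-like (146 and 391 cells in replicates 1 and 2). All 10 pluripotency markers were raised in it, and their summed level was 59.6 and 64.1 per 10000 UMIs, against at most 1.18 in any other state. Fibroblast markers summed to 2.18 and 1.71 in it, below every other state (at least 4.35 and 2.89). States 9 and 10 were fibroblast-like and the other states stayed unnamed. State 5 had 10 of 11 fibroblast markers raised but was left unnamed, because its 10 leading genes held Mylk, a smooth muscle marker, and Ncam1, a neural marker, and no fibroblast marker. State 0 was led by mitotic genes and state 7 by S-phase genes. State 10, which is fibroblast-like, was also led by cycling genes. The libraries shared 12 cell barcodes. A level below is the mean over cells of the UMIs of a gene per 10000 UMIs of the cell.

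Meg3 was the most abundant of the 9 genes, with 99851 UMIs in replicate 1 and 56354 in replicate 2, and its level was lowest in the pluripotent-like state. State 3, led by Rarres2 and Sostdc1, had the highest level, 45.0 in replicate 1 and 23.8 in replicate 2. State 5, led by Mylk and Prss23 and carrying most of the fibroblast markers, followed with 33.2 and 17.2. In the middle of the order stood state 8 (Mmp11 and Dcn) with 26.7 and 10.9 and state 2 (Pcp4 and Nxpe2) with 20.3 and 11.01. The remaining somatic states ran from 11.1 to 18.7 in the first library and from 6.26 to 9.10 in the second. Pluripotent-like cells had 3.97 and 2.98. Every other state was above them in both libraries, and the highest state exceeded the lowest 11.3-fold and 8.002-fold. Outside the 11 states, an epithelial-like cluster had 64 cells in replicate 1 and only 4 in replicate 2. Its Meg3 level was 3.24 in replicate 1, below the pluripotent-like cells, and in replicate 2 it was above them. Low Meg3 was thus not particular to pluripotent-like cells in replicate 1. The step from state 4 (11.1 and 7.18) down to the pluripotent-like state was the widest of the 10 steps in the order, 1.35 ± 0.15 on the log2 scale (SD, n = 2). Of these steps 6 were larger than their spread and in the same direction in both libraries. States 8 and 2, 1 and 7, 0 and 9, and 9 and 4 did not differ beyond their spread. In the macrophage-like cluster, which comes from blood cells and should lack Meg3, the level was 0.243 in 4 cells and 0.210 in 9 cells.

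**Figure D1:**
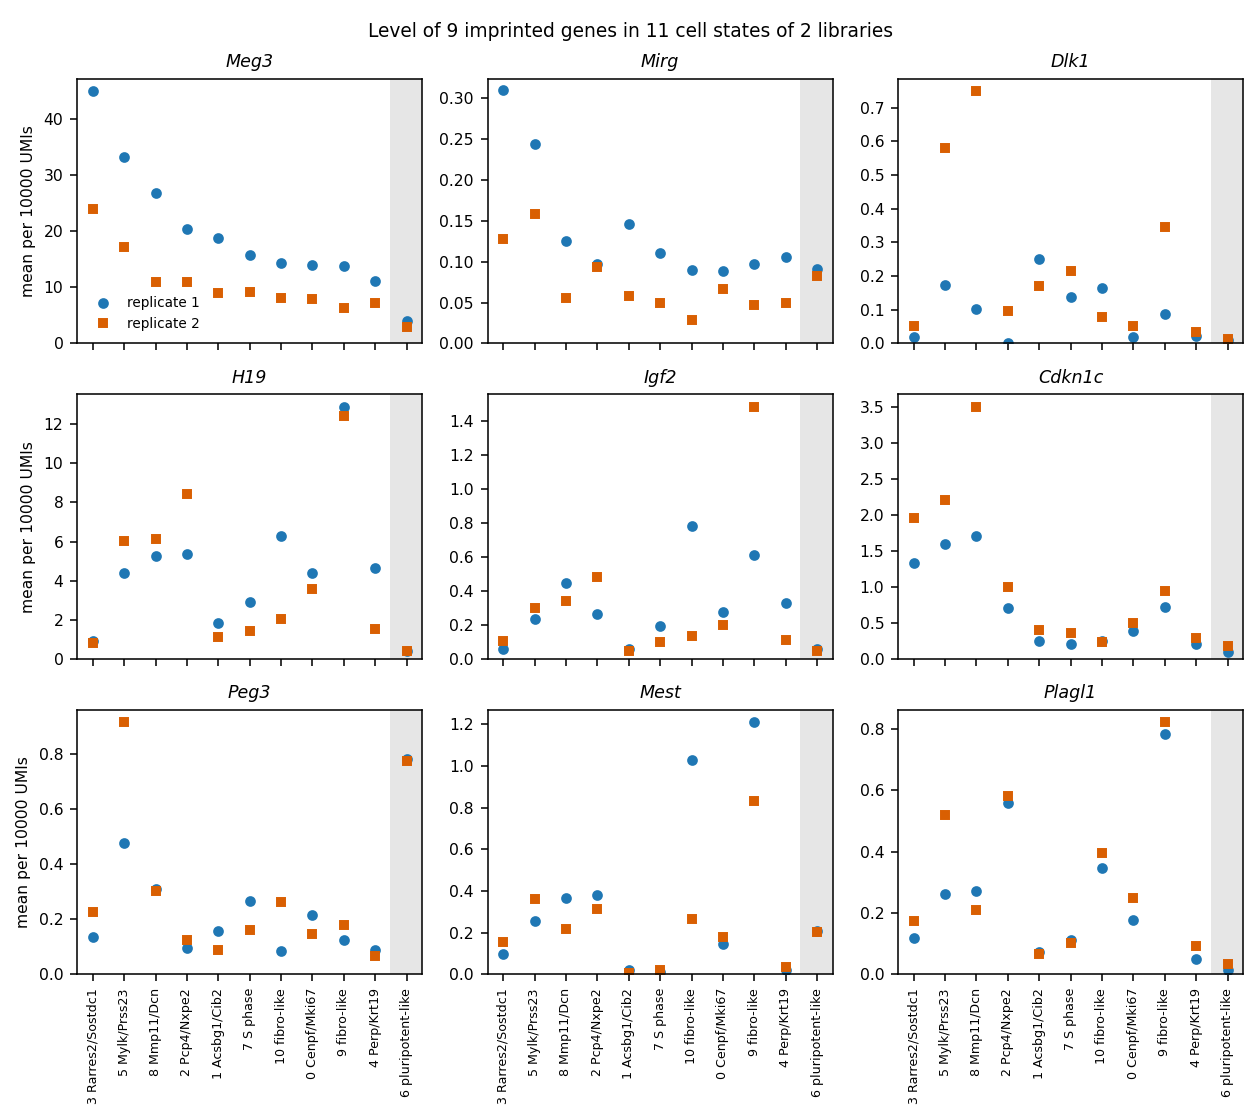
Mean level per 10000 UMIs (vertical axes, linear, starting at 0) of the 9 imprinted genes in 11 cell states, ordered by Meg3, with a circle for replicate 1 and a square for replicate 2. The pluripotent-like state is shaded: Meg3 is at 3.97 and 2.98 there and Peg3 at 0.782 and 0.774, while H19 is highest in the fibroblast-like state 9 at 12.9 and 12.4.

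Mirg, the host of a large microRNA cluster downstream of Meg3, was expressed far below it, with 751 and 483 UMIs in all. Its highest levels were also in states 3 (0.309 and 0.128) and 5 (0.244 and 0.159). In pluripotent-like cells it stood at 0.0915 and 0.0823, below 8 of the 10 other states in replicate 1 and above 7 of them in replicate 2, and 2 of the 10 steps were larger than their spread. The pluripotent-like state was thus lowest for Meg3 and not for Mirg. Dlk1, a Notch-ligand-like membrane protein of fetal mesenchyme and preadipocytes, had 382 and 1118 UMIs. By the mean of the libraries it was highest in states 8 (0.102 and 0.748) and 5 (0.174 and 0.581), and the libraries lay far apart in both. In replicate 1 state 1 was highest at 0.249, and state 8 ranked 5. Pluripotent-like cells had 0.0117 and 0.0129. State 2 held 0 Dlk1 UMIs in replicate 1. Outside the 11 states, a small cluster led by Trf and Saa3, with 41 of its 42 cells in replicate 2, had 3.32 Dlk1 per 10000 and 3.23 Plagl1 in that library.

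H19, a noncoding RNA of fetal growth control, was concentrated in the fibroblast-like state 9, with 12.9 in replicate 1 and 12.4 in replicate 2. State 2 followed with 5.36 and 8.44. State 3, which was highest for Meg3, was the second lowest for H19 at 0.893 and 0.841. Pluripotent-like cells were lowest at 0.412 and 0.408. Igf2, the fetal growth factor beside H19, was also highest in state 9 by the mean of the libraries, at 0.614 and 1.48. The libraries disagreed on state 10, at 0.781 and 0.135, which was the highest state in replicate 1. Only 1 of the 10 Igf2 steps was larger than its spread. Cdkn1c, which encodes a cell cycle inhibitor, had a different top. It was highest in state 8 (1.70 and 3.51), followed by states 5 (1.59 and 2.21) and 3 (1.34 and 1.96). The mitotic state 0 had 0.382 and 0.495, the S-phase state 7 had 0.210 and 0.360, and the pluripotent-like state was lowest with 0.0939 and 0.182.

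Peg3, a zinc finger protein of growth and maternal behaviour, ran the other way. Its level in pluripotent-like cells was 0.782 and 0.774, above all other states in replicate 1 and below only state 5 (0.477 and 0.918) in replicate 2. The remaining states lay at or below 0.311 in both libraries. Outside the states, the epithelial-like cluster had Peg3 at 0.704 in its 64 cells of replicate 1. In these cells H19 (0.560), Plagl1 (0.0243) and Dlk1 (0.0158) were low, as in pluripotent-like cells. In its 4 cells of replicate 2 Peg3 was high and H19 was not low, but so few cells cannot settle the pattern. Mest, a hydrolase-like protein of mesoderm, was highest in state 9 (1.21 and 0.833). By the mean of the libraries it was lowest in states 1 and 7, at 0.0236 or less in both libraries. In replicate 1 state 4, at 0.0200, was below state 1. Pluripotent-like cells were in the middle with 0.210 and 0.203. Plagl1, a zinc finger factor that regulates other imprinted genes, was highest in states 9 (0.783 and 0.823) and 2 (0.561 and 0.583). It was lowest in pluripotent-like cells at 0.0151 and 0.0336.

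Differences between the pluripotent-like state and the mean of the other 10 states were tested with limma over 22 profiles, 1 per state and library, on log2(level + 0.1). Of the 9 genes 6 were lower and 1 was higher at an adjusted p below 0.05. Of all 7131 genes tested 80.9% passed, 47.2% lower and 33.7% higher, so the count of 7 of 9 is near the background, and the sizes and directions of single genes are what these values give. H19 was 7.03-fold lower (log2 -2.81, SE 0.31, limma adjusted p 1.4e-07). Meg3 was 3.98-fold lower (log2 -1.99, SE 0.11, limma adjusted p 1.7e-11), with log2 differences of -2.25 in replicate 1 and -1.73 in replicate 2. Cdkn1c was 3.32-fold lower and Plagl1 2.75-fold lower (limma adjusted p 2e-10 and 4.9e-09). Igf2 was 2.30-fold lower (limma adjusted p 0.0031) and Dlk1 1.99-fold lower (limma adjusted p 0.0086). Peg3 was 3.04-fold higher (log2 1.60, SE 0.20, limma adjusted p 9.7e-07). Mest (log2 0.06, SE 0.24) and Mirg (log2 -0.09, SE 0.11) did not pass, with adjusted p of 0.83 and 0.48 by limma. The median difference of the 9 genes was -1.20 and that of all genes -0.14.

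Against the fibroblast-like states 9 and 10 alone, 7 of the 9 genes were lower and 1 higher, where 80.7% of all genes passed (48.9% lower and 31.8% higher). H19 was 13.5-fold lower (log2 -3.75, SE 0.36, limma adjusted p 2.5e-08), Plagl1 5.26-fold, Igf2 4.58-fold and Meg3 2.85-fold. Mest, which did not differ from the mean of all states beyond the threshold, was 2.75-fold lower here (log2 -1.46, SE 0.28, limma adjusted p 0.00011). Peg3 was 3.45-fold higher. Mirg was at a log2 difference of 0.20 (SE 0.13, limma adjusted p 0.17). With the unnamed state 5, which carries fibroblast markers, added to the fibroblast-like states, the same counts of 7 lower and 1 higher were found, with Meg3 at a log2 difference of -1.93 and Peg3 at 1.26. On the log2(level + 0.1) scale these folds understate the change of the low genes, Dlk1, Igf2 and Plagl1 among them.

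**Figure D2:**
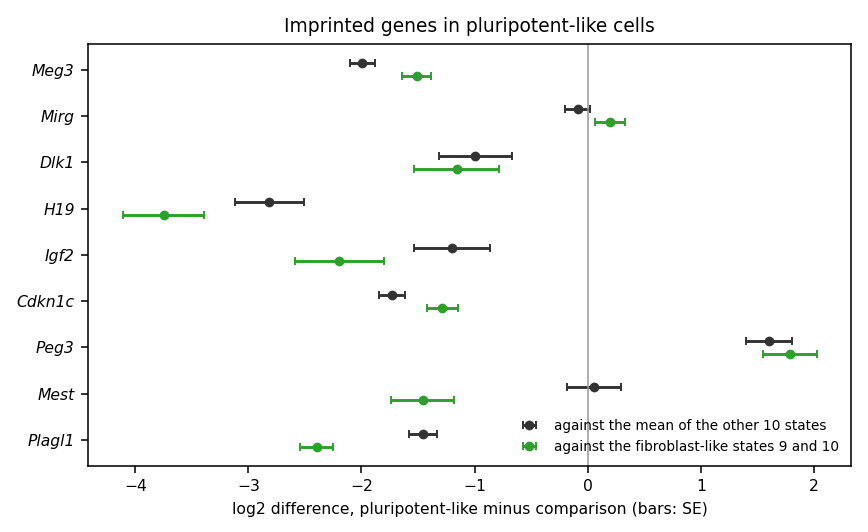
Log2 difference of the pluripotent-like state from the mean of the other 10 states (dark) and from the fibroblast-like states 9 and 10 (green) for each gene, with bars of 1 SE from the limma fit over 22 profiles. H19, Meg3, Cdkn1c and Plagl1 lie left of 0 in both comparisons, Peg3 lies right of 0 in both, and Mest lies near 0 in the first and at -1.46 in the second.

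Among cells with 2 or more UMIs of the Y-linked genes Ddx3y, Eif2s3y, Kdm5d and Uty, a split chosen after the data were seen, Igf2 no longer passed against the other states (log2 -0.42, limma adjusted p 0.20) or against the fibroblast-like states (log2 -0.84, limma adjusted p 0.057), and Meg3 was lower with a log2 difference of -1.73. Among cells with 0 Y-linked UMIs the log2 difference was -2.47 for Meg3 and -1.37 for Igf2 (limma adjusted p 0.00088). Dlk1 was too low to be tested in the first set and Mirg in the second.

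Other genes listed as imprinted moved in both directions in pluripotent-like cells. Whether each was imprinted in these cells was not measured. Of 23 others listed as maternally expressed 13 were tested, and 7 of these were lower and 2 higher than the mean of the other states. Of all genes 47.2% were lower and 33.7% higher. The median difference of the 13 was -0.59 against -0.14. The largest were Gnas, a G-protein subunit whose locus makes both maternal and paternal transcripts (log2 -2.07), and Grb10, an adaptor that restrains insulin signalling (-2.03), then H13 (-1.56), Igf2r, the receptor that clears IGF2 (-1.26), and Osbpl5 (-1.08). Of 25 others listed as paternally expressed 8 were tested, and 4 of these were higher and 4 lower, with a median of -0.01. Snrpn, a splicing protein, was higher (1.64), as was Mcts2 (1.29), and Airn (-1.02), Sgce (-0.92) and Ndn (-0.91) were lower. Airn overlaps Igf2r on the other strand and Mcts2 lies inside H13, so the split of reads between them is uncertain.

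Genes that keep imprints, or that set or oxidise DNA methylation, were measured beside them. Of 15 listed 11 were tested, and 9 of these were higher in pluripotent-like cells. Another 1 (Tet3) was lower and 1 (Dnmt3a) did not pass, where 33.7% of all genes were higher and 47.2% lower. The median difference of the 11 was 2.09. Dnmt3l, Tet1 and Zfp57 averaged under 0.1 over the other states in both libraries, so the pluripotent-like cells brought them past the filter of 0.1. The count of 9 is thus partly set by that filter. Zfp57 was at 0.942 and 0.786 in pluripotent-like cells against a median of 0.082 and 0.081 over the other states (log2 2.40, SE 0.11, limma adjusted p 7.1e-13). Trim28, its corepressor, was higher by 2.30 on the log2 scale, Dnmt3l, a cofactor of DNA methylation in germ cells, by 3.79, Tet1, which oxidises methylated cytosine, by 3.597 and Hells, a chromatin remodeller, by 3.08. Of the insulin-like growth factor axis 13 genes were tested, with Igf2 itself and Igf2r among them. Of these 9 were lower and 4 higher (median -1.20), beside the same 47.2% and 33.7% of all genes. The receptor Igf1r (-2.76) and the binding proteins Igfbp7 (-3.09) and Igfbp3 (-2.75) were lower. The RNA-binding protein Igf2bp1 (2.48) and Igfbp2 (2.24) were higher. All 7 cyclin-dependent kinase inhibitors, Cdkn1c included, were lower (median -1.48), where 47.2% of all genes were, among them Cdkn2a (-1.89), Cdkn2b (-1.73), Cdkn2c (-1.48) and Cdkn1a (-1.17).

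Genes whose pattern was most like that of Meg3 over the 22 profiles were Rab11fip2 (Pearson r = 0.91), Dpysl3 (0.89), Mycbp2 (0.89), Emx2 (0.88) and Trim16 (0.88). For H19 they were its neighbour Igf2 (0.90), then Zdhhc20 (0.89), Lamb1 (0.89), Elk3 (0.87) and Scara3 (0.87). Among the 9 genes themselves H19 also followed Plagl1 (0.81), and Meg3 followed Mirg (0.75) but not Dlk1 (0.09) or H19 (0.27). Profiles share libraries and cells of 1 culture system, so these correlations are descriptions.

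The share of cells with Meg3 was compared after thinning every cell to 3000 UMIs, since pluripotent-like cells were the deepest (medians of 28768 and 26097 UMIs). In pluripotent-like cells 50.7% (exact 95% interval 42.3 to 59.0) of replicate 1 and 37.6% (32.8 to 42.6) of replicate 2 kept a Meg3 UMI. Without thinning the shares were 91.8% and 73.4%. In state 3, where the level was highest, the share was 97.4% in replicate 1 (95.6 to 98.6), against 66.5% in replicate 2 (60.7 to 72.0). Intervals cover counting error only. As a background, 0 of 4 and 1 of 9 macrophage-like cells (medians of 8664.5 and 8833 UMIs) kept a Meg3 UMI. Peg3 was found in 18.5% and 22.0% of thinned pluripotent-like cells and H19 in 8.22% and 6.91%, while in state 9 H19 was found in 50.0% and 54.2%.

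Within pluripotent-like cells Meg3 was uneven. Among those thinned to 10000 UMIs (141 and 371 cells), the ratio of variance to mean (Fano factor) of Meg3 was 4.96 in replicate 1 and 6.46 in replicate 2, where genes averaging 0.5 UMIs or more had medians of 1.14 and 1.16. Only 0.748% and 0.901% of those genes were more uneven. Meg3 averaged 4.10 and 2.96 UMIs in these cells. Those genes were not matched to it by mean, so this rank does not separate unevenness from level. Meg3 was at 0 in 17.0% and 41.0% of the cells, against 1.66% and 5.17% for a Poisson count of the same mean. Peg3, at lower means of 0.780 and 0.817 UMIs, was nearer to even than Meg3, with Fano factors of 1.41 and 1.34. Still, only 17.9% and 24.3% of those genes were more uneven than Peg3. H19 had 8.09 and 5.50, carried by few cells, since its 90th percentile was 1 UMI and its maximum 19 in both libraries. In state 9, Igf2 was found more often in thinned cells with H19 (15.9% and 22.2%) than in those without (4.76% and 2.63%).

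Levels of Meg3 also differed between the libraries. Over all cells Meg3 was at 21.9 in replicate 1 and 10.1 in replicate 2, and 95.5% and 69.8% of cells had a UMI. It was higher in replicate 1 in all 11 states, 1.84-fold with equal weight to states (log2 of replicate 2 over replicate 1, -0.88 ± 0.24, SD over 11 states). Of all genes tested 5.74% had the same direction in every state (3.88% higher in replicate 1 and 1.85% higher in replicate 2), and 0.477% were at least 1.5-fold apart, with 0.309% in the direction of Meg3. Mirg was also higher in replicate 1 in all 11 states (log2 -0.42 ± 0.24). Cdkn1c was higher in replicate 2 in 10 of 11 states (log2 0.45 ± 0.25). Dlk1 was higher in replicate 2 in 9 of 11 states, with a wide spread (log2 0.54 ± 0.79), and the other genes were split between 3 and 8 states. With 2 libraries of 1 group this difference has no test.

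The difference in Meg3 followed Xist and Y-linked RNA. Xist, made by the inactive X chromosome, marks cells with more than 1 X chromosome, and Y-linked RNA marks male cells. Outside the pluripotent-like state cells with 2 or more Xist UMIs and 0 Y-linked UMIs (1331 and 1576 cells in replicates 1 and 2) were set against cells with 0 Xist and at least 1 Y-linked UMI (1010 and 1140 cells). This split was chosen after the data were seen, and the states were clustered without X-linked and Y-linked genes. In replicate 1 Meg3 was at 25.0 in cells with Xist and 20.8 in cells with Y-linked RNA. In replicate 2 it was at 2.22 in cells with Xist and 18.3 in cells with Y-linked RNA. The Xist cells of replicate 2 stood apart from the other sets of cells. After thinning to 3000 UMIs, Meg3 was found in 86.0% of Xist cells (84.0 to 87.8) of replicate 1 but in 16.6% (14.8 to 18.6) of those of replicate 2. Median depths were 14882 and 13892 UMIs in the Xist cells and 16226 and 14317 in the cells with Y-linked RNA.

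**Figure D3:**
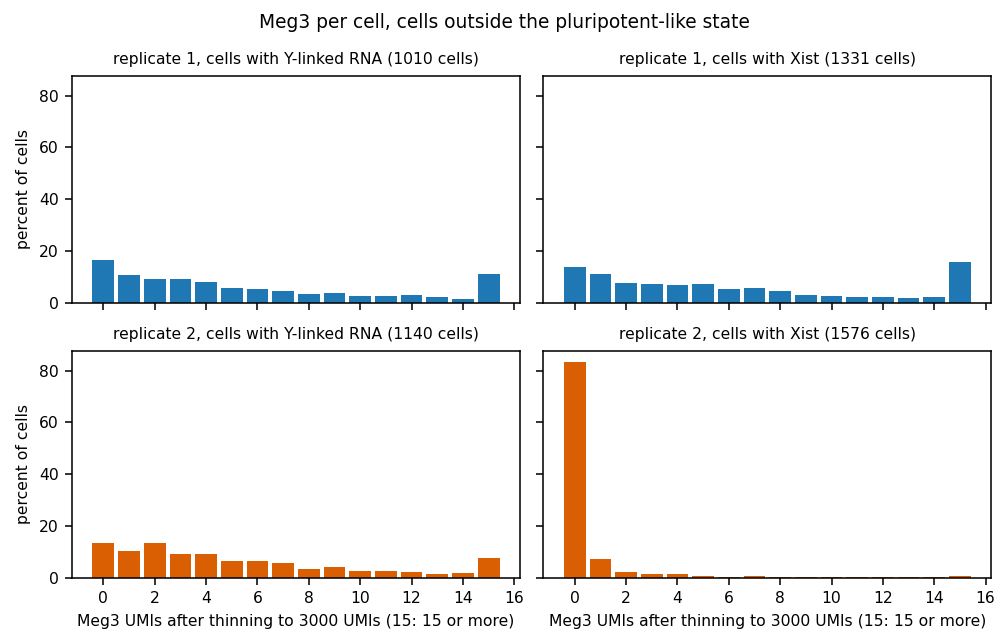
Percent of cells (vertical axes) with each number of Meg3 UMIs after thinning to 3000 UMIs (horizontal axes, with 15 standing for 15 or more), outside the pluripotent-like state, for cells with Y-linked RNA (left) and cells with Xist (right) of replicate 1 (top) and replicate 2 (bottom). In the Xist cells of replicate 2, 83.4% are at 0, while 13.5% to 16.7% are at 0 in the other panels.

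The drop held in each state. In replicate 2 Meg3 was lower in Xist cells in 9 of 9 states with at least 30 cells of both kinds (log2 -2.88 ± 0.48, SD over states), and in replicate 1 in 1 of 9 (log2 0.15 ± 0.13). In state 3, where Meg3 was highest, Xist cells had 48.7 in replicate 1 and 5.63 in replicate 2, and cells with Y-linked RNA had 41.9 and 37.5. In state 1 the Xist cells had 18.2 and 1.53 and the cells with Y-linked RNA 17.0 and 20.7. Of 6896 autosomal genes none was further apart than Meg3 in replicate 2, and 1141 were in replicate 1. At least 1.5-fold apart were 9 autosomal genes (0.131%) in replicate 2 and 10 (0.145%) in replicate 1. Of the 9 imprinted genes these included 4 in replicate 2, Meg3, Mirg, Dlk1 and Igf2, and 0 in replicate 1. Among cells with Y-linked RNA the libraries differed by -0.19 (log2 of replicate 2 over replicate 1), against -1.11 over all cells.

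Other RNAs of the domain moved with Meg3. Mirg had 35 UMIs of 24291046 in the Xist cells of replicate 2, a level of 0.0132, against 0.133 in cells with Y-linked RNA and 0.169 in the Xist cells of replicate 1. It was lower in 9 of 9 states (log2 -0.95 ± 0.41), and 3 autosomal genes were further apart. B830012L14Rik, a transcript between Rian and Mirg that was added after the values were seen, had 0.0119 in those cells against 0.0566 in cells with Y-linked RNA (lower in 8 of 9 states, log2 -0.37 ± 0.31). Dlk1, the paternal gene of the domain, was at 0.399 in the Xist cells and 0.0996 in the cells with Y-linked RNA of replicate 2, and was higher in 7 of 9 states (log2 0.92 ± 1.16), a difference within its spread over states. Beyond the domain on both sides, among genes that averaged 0.05 per 10000 or more, the cells were close, with log2 differences between -0.05 (Wars) and 0.21 (Evl) upstream and of 0.03 (Ppp2r5c) downstream. H19 (log2 0.56 ± 0.72) and Igf2 (0.65 ± 1.08) were higher in the Xist cells of replicate 2 by less than their spread, and Cdkn1c, Peg3, Mest and Plagl1 lay between 0.02 and 0.16. In replicate 1 the widest were Mest (0.57 ± 0.60) and Peg3 (-0.45 ± 0.43).

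**Figure D4:**
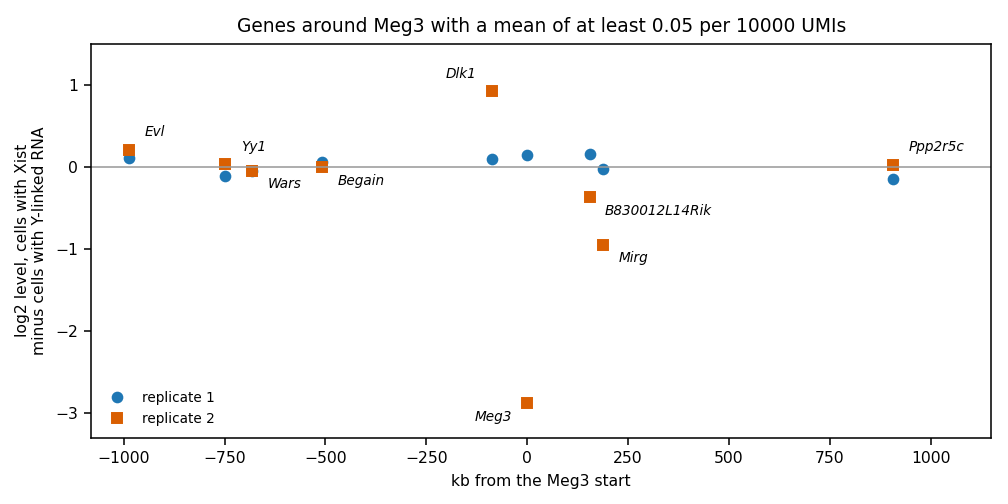
Log2 difference in level of cells with Xist minus cells with Y-linked RNA (vertical axis, mean over 9 states) for genes around Meg3 with a mean of at least 0.05 per 10000 UMIs, by distance from the Meg3 start in kb, with circles for replicate 1 and squares for replicate 2. In replicate 2 Meg3 is at -2.88, Mirg at -0.95, B830012L14Rik at -0.37 and Dlk1 at 0.92, while the more distant genes lie between -0.05 and 0.21.

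Few genes elsewhere went with the drop. In replicate 2, among cells with 0 Y-linked UMIs outside the pluripotent-like state, those under 1 Meg3 UMI per 10000 (1359 cells, 95.1% with an Xist UMI) were compared with the rest (817 cells, 40.1% with an Xist UMI). Over 9 states, 4 of the 6895 autosomal genes other than Meg3, which made the split, were at least 1.5-fold apart (0.058%). They were Mirg (log2 -1.08, lower in 9 of 9 states), Gm8797, a predicted gene on chromosome 3 (-1.34, 9 of 9), Serpina3n on chromosome 12 (0.74, 9 of 9) and Clec3b on chromosome 9 (-0.70, 9 of 9). The last 3 were named after their values were seen. Gm8797 was found in 7.42% of the Xist cells and 42.5% of the cells with Y-linked RNA of replicate 2, and in 53.9% and 52.6% of those of replicate 1. Outside the pluripotent-like state both libraries held Xist cells and cells with Y-linked RNA. Of these sets, the Xist cells of replicate 2 were the ones with low Meg3. For those cells the embryo, the STEMCCA mouse system and the library cannot be told apart with the labels used here. A cause was not tested.

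Cells with little Meg3 were few in replicate 1. There 9.42% of all cells were under 1 Meg3 UMI per 10000, with a mean of 0.340 against 24.2 in the rest, and in replicate 2 42.6% were, with a mean of 0.181 against 17.4. Between 0.5 and 2, near that line, lay 278 and 556 cells. Outside the pluripotent-like state Mirg had 5 UMIs of 4621455 in the low cells of replicate 1 and 706 of 45295018 in the others. In replicate 2 it had 5 of 22926997 and 381 of 31370569. B830012L14Rik had 1 and 341 UMIs in replicate 1 and 8 and 170 in replicate 2. Dlk1 did not share a direction, with 2 UMIs in the low cells and 375 in the others of replicate 1, and 723 and 380 in replicate 2. Mirg and B830012L14Rik were thus low in the cells with little Meg3 in both libraries.

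In the pluripotent-like state, where Xist was at most 0.271 per 10000 and could not mark the cells, those with 2 or more Y-linked UMIs were set against those with 0. In replicate 1 Meg3 was at 5.29 in 40 cells with Y-linked RNA and 3.17 in 86 cells without. In replicate 2 it was at 5.01 in 126 cells with and 1.27 in 215 cells without. After thinning, 62.5% (45.8 to 77.3) and 40.7% (30.2 to 51.8) of the cells of replicate 1 had Meg3, and 63.5% (54.4 to 71.9) and 18.1% (13.2 to 24.0) of those of replicate 2. Under 1 Meg3 UMI per 10000 were 3 of 40 and 28 of 86 cells in replicate 1, and 17 of 126 and 163 of 215 in replicate 2. Their median depths were 27656.5 and 29662.5 UMIs in replicate 1 and 29410.5 and 23731 in replicate 2. Peg3 was close in both kinds of cell, at 0.751 and 0.822 in replicate 1 and 0.694 and 0.807 in replicate 2. Cells with Y-linked RNA of both libraries thus had near equal Meg3, at a level below that of every somatic state with the same mark.

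**Figure D5:**
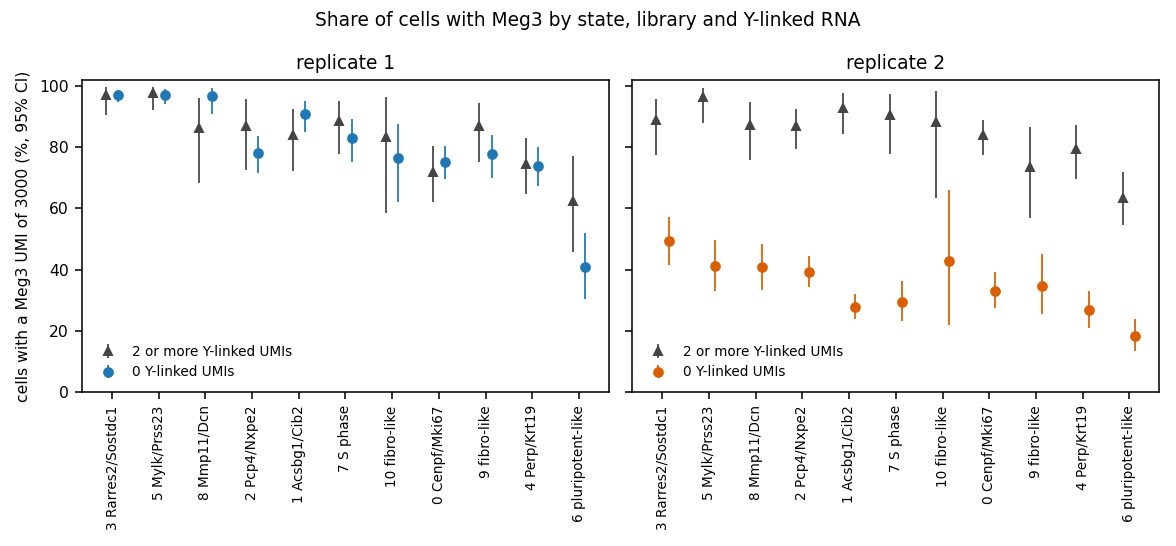
Share of cells with a Meg3 UMI after thinning to 3000 UMIs (vertical axis, percent, bars for exact 95% intervals) in 11 states, for cells with 2 or more (triangles) and 0 (circles) Y-linked UMIs in replicate 1 (left) and replicate 2 (right). In replicate 2 the circles lie at 18.1% to 49.4% and the triangles at 63.5% to 96.6%, while in replicate 1 the largest gap is in the pluripotent-like state, 40.7% against 62.5%.

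Co-detection in pluripotent-like cells thinned to 10000 UMIs followed the same lines. In replicate 1 Mirg was found in 11.7% of 120 cells with Meg3 (6.53 to 18.8) and in 0 of 21 without it (0 to 16.1). These intervals overlapped, so the thinned cells of replicate 1 do not separate the 2 kinds. In replicate 2 it was found in 13.1% of 222 with (8.93 to 18.2) and 2.68% of 149 without it (0.74 to 6.73). Without thinning, Mirg had 2 UMIs of 824665 in the pluripotent-like cells of replicate 1 under 1 Meg3 per 10000 and 38 of 3404239 in the others, and 7 of 4727327 and 90 of 5629413 in replicate 2. H19 was found in 21.7% and 33.3% of the cells with and without Meg3 of replicate 1 and in 22.1% and 19.5% of those of replicate 2, and Peg3 in 51.7% and 47.6%, and 50.5% and 49.0%. Dppa3, a factor that protects imprints in the egg and early embryo, was counted too. In replicate 1 it was found in 46.7% of cells with Meg3 (37.5 to 56.0) and 33.3% of the 21 without it (14.6 to 57.0). In replicate 2 the shares were 36.0% (29.7 to 42.7) and 47.7% (39.4 to 56.0). The shares did not have the same direction, but the intervals of replicate 1 overlapped. Mean Dppa3 UMIs were lower in cells with Meg3 in both libraries, at 0.925 against 1.05 and 0.635 against 1.05.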

How the data were processed

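Single cells were profiled with 10x Chromium 3′ chemistry at day 16 in 2 libraries, which formed 1 group. The authors aligned reads with Cell Ranger 2.1.1 to mm10, kept cells with 1500 to 6000 genes and under 9% mitochondrial RNA, and deposited values as the natural log of 1 plus UMIs per 10000, made with Seurat. How doublets were handled is not stated in the sources read, and no doublet caller was run. UMIs were recovered from the values, of which 100% lay within 0.01 of a whole number. No value column lacked a sample.

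Cells were clustered with scanpy 1.11.5 and leidenalg 0.10.2 on 2000 variable genes, 30 principal components and 15 neighbours at resolution 1, with 657 X-linked, Y-linked, imprinted and reprogramming factor genes held out. A state was named where at least 3 and over 50% of a class's markers were raised by a log2 fold of 1 and its 10 leading genes included as many markers of that class as of any other, or more, a rule set after the clusters were seen. Profiles were tested with limma 3.58.1 (R 4.3.3) on log2(mean per 10000 + 0.1) with state and library terms, over 7131 genes with a mean of at least 0.1, and p-values were Benjamini-Hochberg adjusted. On simulated profiles with 200 genes changed 4-fold, the first comparison recovered 98%, and 3.45% of its calls were unchanged genes. Those profiles held no other differences between states or libraries, unlike the data, so they do not give error rates for these comparisons. Thinning to 3000 UMIs left out 0 cells, and thinning to 10000 left out 527 and 822. Shares have exact (Clopper-Pearson) intervals. With 2 libraries an exact two-sided test cannot go below a p of 0.5, so differences between libraries were not tested.

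The members and gene lists were chosen with earlier results of these data known. Of each list up to 5 genes are named, those furthest from 0 among the genes past the threshold with 1 direction in both libraries, and for Meg3 and H19 the 5 genes of highest correlation. Per-gene sequences came from RefSeq tables.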

Additional observations from a re-analysis of the deposited data

How the results depend on the processing

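Of 266 alternative values with a test for the genes in the comparisons of the pluripotent-like state, 258 kept their direction and their side of the threshold, 5 fell short of it and 3 changed sign. Of 36 values with 1 library left out, which have no test, 33 kept their direction and 3 changed sign. The number of genes called stayed between 5 and 7 against the other states and between 6 and 8 against the fibroblast-like states. Losses were those of Dlk1 with a pseudocount of 1 (log2 -0.19 and -0.20), and of Igf2 with a pseudocount of 1 (-0.30) or in cells with 2 or more Y-linked UMIs (-0.42 and -0.84). Sign changes touched only Mirg and Mest, in comparisons that did not pass: Mirg against the other states ranged from -0.28 to 0.10 with 1 library left out and Mest from -0.015 to 0.13, and Mest was at -0.064 with a pseudocount of 1. Against the fibroblast-like states Mirg was at -0.13 at resolution 2 and -0.093 with the unnamed state 5 added, and ranged from -0.012 to 0.41 with 1 library left out.

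The share of pluripotent-like cells with Meg3, 44.1% as the mean of the libraries, was 82.6% without thinning and 72.5% at 10000 UMIs, and 37.6% to 50.7% by library. Their Meg3 level was 3.48, from 2.98 to 3.97 by library. Mirg was found in 12.4% of cells with Meg3 (11.7% to 13.1%) and in 3.73% at 3000 UMIs. The log2 difference in Meg3 between libraries, -1.11 over all cells, was -0.29 in cells with 2 or more Y-linked UMIs, -1.54 in cells with 0, -3.44 in Xist cells and -0.19 in cells with Y-linked RNA and no Xist, all chosen after seeing the data. No filter on low values gave 9882 and 10067 called genes of 17408, against 5768 and 5756 of 7131. States were compared within libraries through the library term, and leaving that term out changed none of the calls for the 9 genes. Without it the SE of the Meg3 difference from the other states was 0.38, against 0.11 with it. Mirg and Dlk1 had the fewest UMIs of the 9 genes, and 8 of the 10 steps between states were within the spread of the libraries, or differed in direction, for each.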
